A study of Danio rerio with 10 samples.

Results

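The transcripts described here are a run of 6 neighbouring Ensembl transcript IDs, from ENSDART00000093596 to ENSDART00000093625, that are taken to be mRNAs of the zebrafish mitochondrial genome. They were selected on their ID number and on a mean of at least 100 counts over the 10 libraries, out of 16383 transcripts in all. The ID range held 6 rows, and all 6 had a mean above that minimum. The means ran from 5237 counts for ENSDART00000093611 to 48701 for ENSDART00000093625, so the lowest lay far inside the threshold and 0 rows of the range lay outside it. The nearest IDs on either side of the range, ENSDART00000093574 and ENSDART00000097155, had means of 1.4 and 278.1 counts. The mitochondrial identity rests on the ID range alone. Whether the range holds all mitochondrial mRNAs was not checked, so shares of the block are those of these 6 transcripts only. No gene names come with the IDs in the deposited file, and the gene tables used here matched 0 of the 16383 IDs. The members are therefore named by ID, and no single gene or role is assigned to any of them.

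RNA of wild-type AB-strain zebrafish embryos was measured at 5 stages, with 1 nuclear and 1 cytosolic library at each stage and no replicates within a stage. The stages were 64-cell, 256-cell and 1000-cell, which are cleavage and early blastula stages and are called early here, and dome and shield, a later blastula and an early gastrula stage, which are called late. Each sample was a pool of dechorionated embryos. Cells were lysed and spun, the pellet after washing was the nuclear fraction, and what stayed in solution was the cytosolic one. The fractionation was not checked here, because no transcript could be named by gene as a nuclear or a cytoplasmic marker. The members themselves, if mitochondrial, are RNAs of an organelle of the cytoplasm. Whether the washed pellet held mitochondria as well as nuclei was not tested. A nuclear level or share is therefore that of the pellet, and is not taken as RNA inside nuclei.

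The mitochondrial genome of vertebrates encodes core subunits of the respiratory chain and of ATP synthase, together with the ribosomal and transfer RNAs used to translate them. It is transcribed into long precursors, from which the mRNAs are cut out, so that mRNAs made together can later differ in level through their stability. Mitochondria lie in the cytoplasm and are inherited from the mother, and a fish egg holds a large stock of them before the embryo's own nuclear genes are transcribed.

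Total counts per library ran from 5909037 to 14311969. Single members had 845 to 102456 counts in a library, which corresponds to a relative counting error (Poisson) of 3.44% at the lowest and 0.312% at the highest. Levels are given as CPM, which relates each count to the summed counts of the 9568 transcripts tested, after TMM scaling, a correction for differences in library composition. The TMM factor was 0.714 for the cytosolic shield library and 0.998 to 1.104 for the 9 others, so values at shield depend on scaling more than those at the other stages. Read counts grow with transcript length, which the files do not give. Levels of different members are for that reason not ranked against each other as numbers of molecules. In whole embryos, fewer mitochondria or cells of a kind and less RNA in each of them cannot be told apart. Levels and shares are also relative to the other counts of a library. A lower value does not by itself show that there was less RNA of the block.

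The block made up a much larger share of the nuclear than of the cytosolic counts at the 3 early stages, and similar shares at dome and shield. At 64-cell the 6 transcripts together held 3.34% of the nuclear counts (95% Wilson interval 3.33 to 3.35%), against 0.453% of the cytosolic counts (0.449 to 0.456%). At 256-cell they held 4.40% of the nuclear and 0.649% of the cytosolic counts, and at 1000-cell 3.57% of the nuclear and 1.03% of the cytosolic counts. At dome the shares were 1.30% nuclear and 1.34% cytosolic. At shield they were 0.701% nuclear and 0.569% cytosolic. The intervals cover counting error only, and take no account of PCR duplicates. The 2 fractions thus followed different courses. The nuclear share was highest at 256-cell and lowest at shield, while the cytosolic share was lowest at 64-cell and highest at dome.

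**Figure D1:**
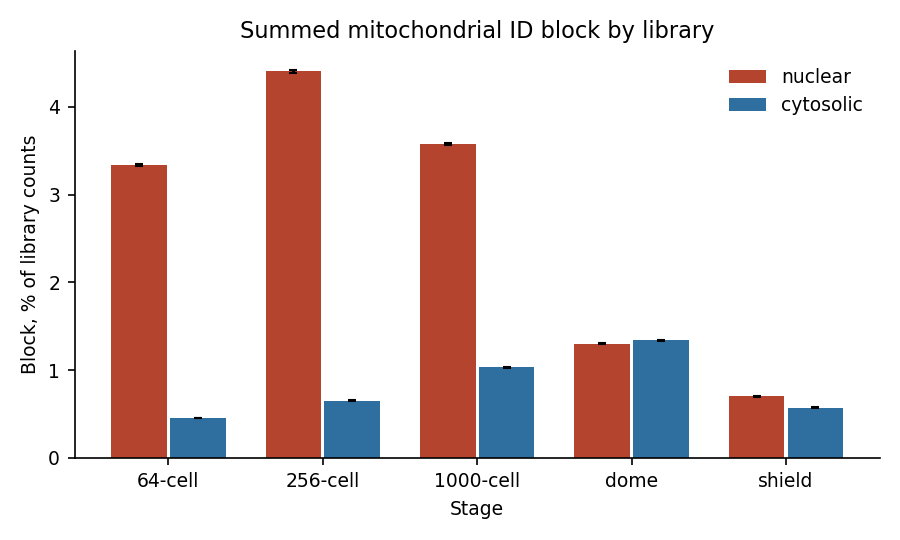
Share of all counts held by the 6 transcripts of the block (y axis, % of library counts) in the nuclear and cytosolic library of each stage (x axis); error bars are 95% Wilson intervals for counting error. The nuclear bars stand at 3.34 to 4.40% at the 3 early stages, against 0.453 to 1.03% for the cytosolic bars, and the 2 bars are close at dome and shield.

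ENSDART00000093625, the last ID of the block and the member with the most counts, had 9197, 14622, 9720.5, 4457 and 3209.7 CPM in the nuclear libraries from 64-cell to shield. The cytosolic libraries, in the same order, had 1267, 2117, 2758, 4435 and 3224 CPM. Its nuclear level was above its cytosolic level by 2.86, 2.79 and 1.82 on the log2 scale at the early stages and was level with it at dome (0.01) and shield (-0.01). The nuclear libraries of the early stages stood above every other library for this transcript. Its late cytosolic levels were both above its early cytosolic levels.

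ENSDART00000093618 had 7392, 9067, 8749, 2979 and 1231 CPM in the nuclear libraries in order of stage, against 911.8, 1298, 2459, 3159.6 and 1551 CPM in the cytosolic libraries. ENSDART00000093622 had 6012, 7617, 6378, 1959 and 1001 CPM in the nuclear libraries and 727.3, 1126, 1653, 2268 and 1350.5 CPM in the cytosolic libraries. Both showed the course of the whole block, with the highest nuclear level at 256-cell and the highest cytosolic level at dome. The log2 nuclear/cytosolic ratio over the 5 stages was 3.02, 2.80, 1.83, -0.09 and -0.33 for ENSDART00000093618. For ENSDART00000093622 it was 3.05, 2.76, 1.95, -0.21 and -0.43.

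ENSDART00000093596, the first ID of the block, had 5793, 6805, 6329, 1789.8 and 803.4 CPM in the nuclear libraries from 64-cell to shield, against 768.6, 971.6, 1853, 1789 and 1352 CPM in the cytosolic libraries. It was the only member whose cytosolic level was slightly lower at dome than at 1000-cell. Its log2 nuclear/cytosolic ratios of 2.91, 2.81, 1.77, 0.00 and -0.75 had the lowest mean of the 6 members, at 1.35 ± 1.66 (SD, n = 5 stages). At shield its ratio was the lowest of the 6.

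ENSDART00000093611 had the fewest counts, with 1041, 1854, 1133, 384.6 and 143.7 CPM in the nuclear libraries in order of stage and 147.0, 269.2, 281.0, 460.9 and 199.0 CPM in the cytosolic libraries. Its log2 nuclear/cytosolic ratios were 2.82, 2.78, 2.01, -0.26 and -0.47. Between the highest and the lowest of its 10 libraries it spanned 3.69 on the log2 scale, and the members as a group spanned 3.15 to 3.83.

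ENSDART00000093623 differed from the other members at the end of the series. It had 2297, 4105, 2266, 1063 and 652.6 CPM in the nuclear libraries from 64-cell to shield, against 289.5, 537.8, 660.3, 897.8 and 292.0 CPM in the cytosolic libraries. Its log2 nuclear/cytosolic ratios were 2.99, 2.93, 1.78, 0.24 and 1.16. With TMM scaling it was the only member whose nuclear level was the higher one at all 5 stages. It also had the highest mean ratio, 1.82 ± 1.18 (SD, n = 5 stages). With library totals in place of TMM scaling its ratio at shield was 1.64.

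**Figure D2:**
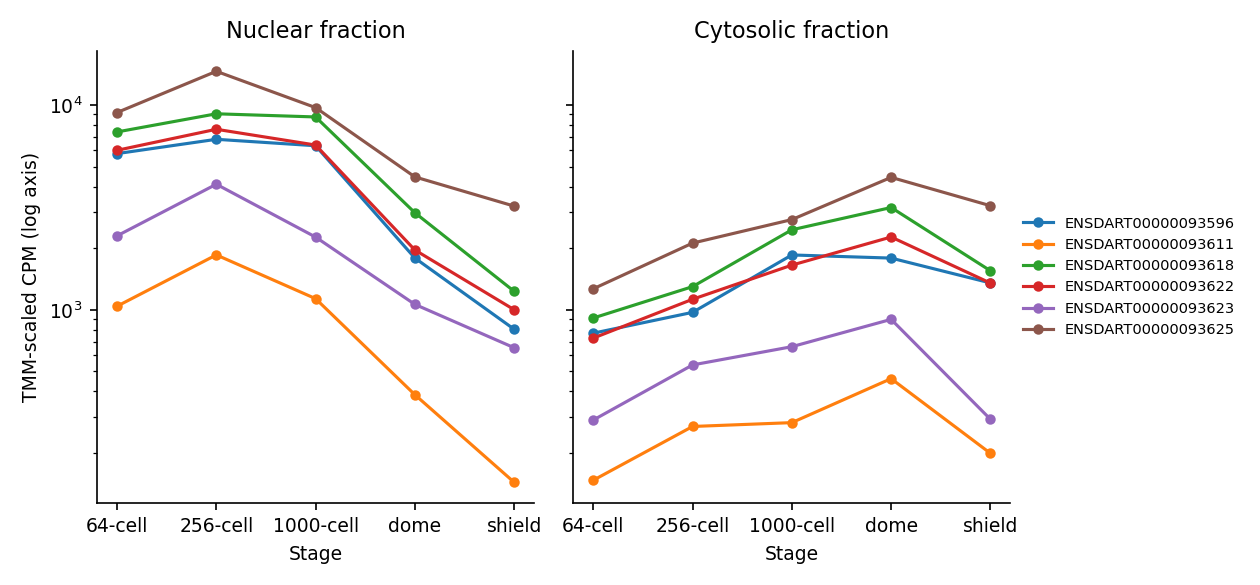
Level of each of the 6 transcripts (TMM-scaled CPM, log axis) by stage in the nuclear libraries (left panel) and the cytosolic libraries (right panel), with 1 library per point. The nuclear lines lie highest at 256-cell and lower at dome and shield, while the cytosolic lines are higher from stage to stage up to dome, except that of ENSDART00000093596 between 1000-cell and dome, and are lower at shield.

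At the early stages the members had nearly the same nuclear/cytosolic ratio. The log2 nuclear/cytosolic ratio of the summed block was 2.95 at 64-cell, 2.80 at 256-cell and 1.84 at 1000-cell. Around these values the 6 members spanned 0.22, 0.17 and 0.24 on the log2 scale from lowest to highest. Their SD was 0.090, 0.061 and 0.098, while the same ratio had an SD of 1.27, 1.38 and 1.43 over the 9568 transcripts tested. All of those transcripts include many with low counts and more counting noise than the members have. The block's ratio was -0.04 at dome, where the members spanned 0.50, and -0.18 at shield, where they spanned 1.91. The median ratio of all tested transcripts was 0.00 at each early stage and at shield, and 0.06 at dome. Tested transcripts include any without counts in both libraries of a stage, whose ratio is 0 by construction. At the early stages the median was 0.00 with library totals as well, so it is not a median of detected transcripts. How many transcripts lacked counts at a stage was not determined.

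All 6 members exceeded a 2-fold excess in the nuclear library at 64-cell, at 256-cell and at 1000-cell. Of all tested transcripts, 8.94%, 12.9% and 13.9% were so at these stages. The shares given here are over all tested transcripts, including any without counts at the stage. Shares among detected transcripts only were not computed. At dome 0 of 6 members were, against 20.7% of tested transcripts, and at shield 1 of 6 was (ENSDART00000093623), against 29.5%. A ratio as high as that of the summed block was found for 1.62% of tested transcripts at 64-cell, 3.58% at 256-cell and 7.48% at 1000-cell, but for 60.0% at dome and 59.8% at shield. Of the 9568 transcripts, 9 others had ratios at least as high as the lowest member at all 3 early stages. The cuts were the members' own lowest ratios of 2.82, 2.76 and 1.77, so the 6 reach them by construction. Transcripts slightly under a cut are left out of the 9, such as ENSDART00000118299 with 2.80, 3.02 and 1.72. With 1 library per fraction and stage these ratios have no replicate check.

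The sign of the ratio at shield depended on scaling. With library totals the summed block stood at 0.30 there instead of -0.18, and 5 of 6 members were higher in the nuclear library instead of 1 of 6. The share of all tested transcripts higher in the nuclear library was not counted. The median of all tested transcripts moved to 0.38 with library totals. A change of scaling shifts the log2 ratios of well-counted transcripts by nearly the same amount. It therefore cannot check the place of the block among them. At dome the ratios of ENSDART00000093596 and ENSDART00000093625 were so close to 0 that their sign changed with the scaling as well. At the early stages the ratios of all 6 members kept their sign under each of the 3 other scalings tried.

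**Figure D3:**
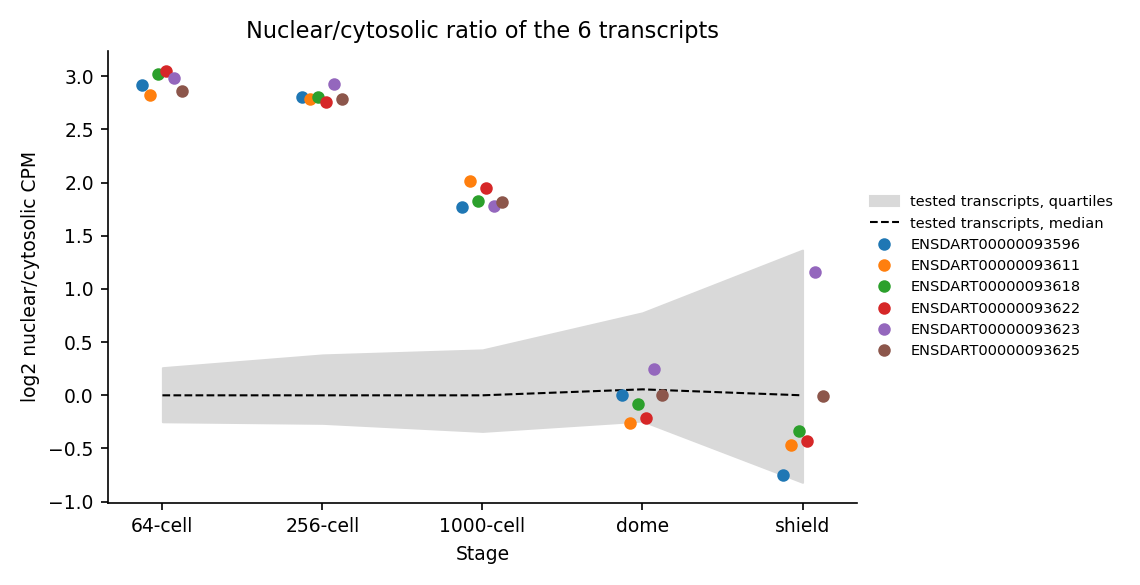
Log2 ratio of nuclear to cytosolic CPM (y axis) of each of the 6 transcripts at each stage (x axis), with the median (dashed) and the quartiles (grey) of the 9568 transcripts tested. The members sit together at 2.76 to 3.05 at the first 2 stages and at 1.77 to 2.01 at 1000-cell, lie near the median at dome, and spread from -0.75 to 1.16 at shield.

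The share of each member within the block uses counts of 1 library only and does not depend on scaling between libraries. ENSDART00000093625 held the largest part of the block's counts in every library. Its share was 29.0, 33.2, 28.1, 35.3 and 45.6% of the block in the nuclear libraries from 64-cell to shield and 30.8, 33.5, 28.5, 34.1 and 40.5% in the cytosolic libraries. It was highest at shield in both fractions. At shield its 95% Wilson intervals for this share were 45.1 to 46.1% (nuclear) and 40.0 to 40.9% (cytosolic).

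In percentage points, the composition differed little between the 2 fractions up to dome. Of the other members, ENSDART00000093618 held 23.3, 20.6, 25.3, 23.6 and 17.5% of the block in the nuclear libraries and 22.2, 20.5, 25.4, 24.3 and 19.5% in the cytosolic libraries, in order of stage. ENSDART00000093622 had the steadiest share relative to its mean, with a coefficient of variation of 8.04% over the 10 libraries and a range of 14.2 to 18.9%. ENSDART00000093611 stayed between 2.04 and 4.26%, and was lowest in the nuclear shield library. Within a stage, no share differed between the 2 fractions by more than 1.83 percentage points at the 3 early stages. At dome the largest difference, nuclear minus cytosolic, was -1.92 points, for ENSDART00000093622. Some of these differences exceeded counting error, as for ENSDART00000093625 at 64-cell. Its Wilson intervals there were 28.8 to 29.1% (nuclear) and 30.5 to 31.2% (cytosolic). For ENSDART00000093623 at dome they were 8.28 to 8.54% (nuclear) and 6.78 to 7.03% (cytosolic).

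At shield the shares parted most between the fractions, in percentage points, for ENSDART00000093596, ENSDART00000093623 and ENSDART00000093625. Nuclear minus cytosolic, they differed by -5.56, 5.60 and 5.13 percentage points, in that order. The differences were -2.73 for ENSDART00000093622, -1.98 for ENSDART00000093618 and -0.46 for ENSDART00000093611. Differences in percentage points depend on the size of a member's share. As a log2 ratio of nuclear over cytosolic share, ENSDART00000093611 parted by -0.29 and ENSDART00000093625 by 0.17. The shares of a library add up to the whole block, so a higher share of any member lowers those of others. ENSDART00000093596 held 18.3, 15.4, 18.3, 14.2 and 11.4% of the block in the nuclear libraries, against 18.7, 15.4, 19.2, 13.7 and 17.0% in the cytosolic libraries. ENSDART00000093623 held 7.24, 9.31, 6.55, 8.41 and 9.27% in the nuclear libraries, against 7.04, 8.51, 6.83, 6.90 and 3.66% in the cytosolic libraries. At shield its Wilson intervals were 8.99 to 9.55% (nuclear) and 3.49 to 3.84% (cytosolic), a difference of 5.60 percentage points that is larger than counting error. ENSDART00000093623 also had the most variable share relative to its mean, with a coefficient of variation of 22.5%. The cytosolic shield library, in which it was lowest, is the library with the lowest TMM factor. The part of that library's composition in this result was not tested.

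**Figure D4:**
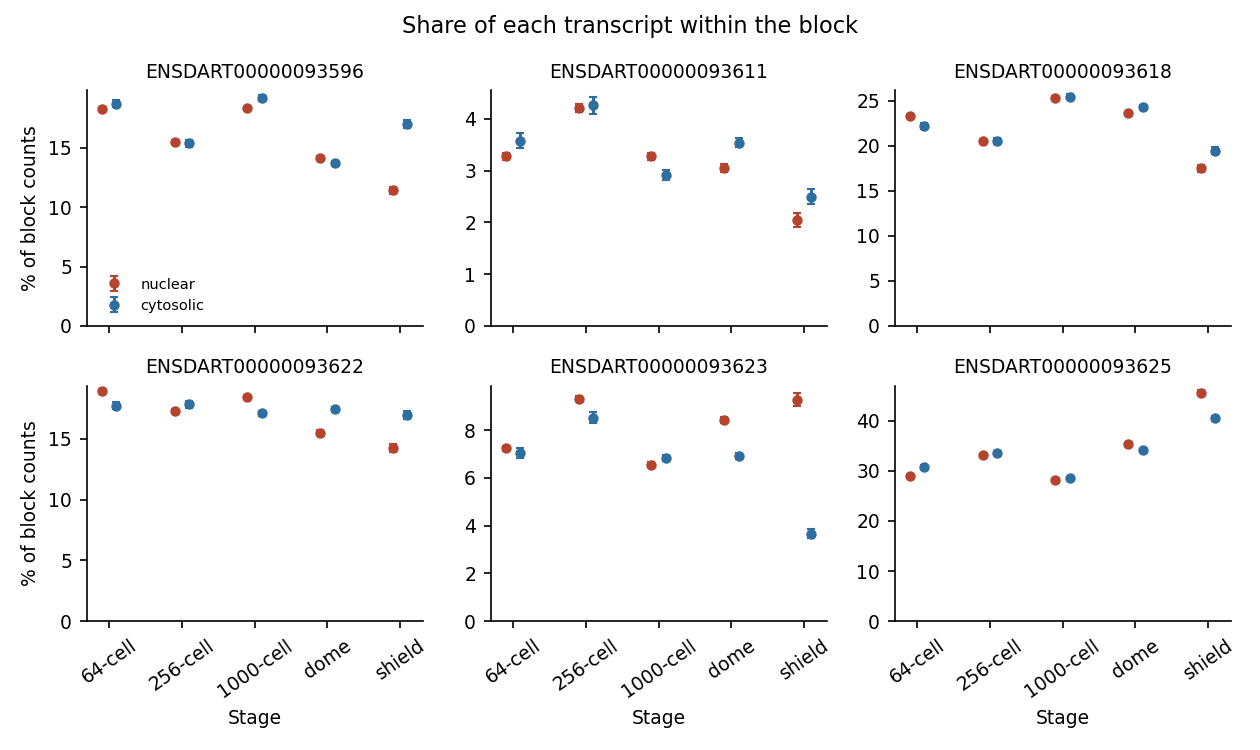
Share of the block's counts held by each of the 6 transcripts (y axis, % of block counts, each panel from 0) in the nuclear and cytosolic libraries by stage (x axis), with 95% Wilson intervals. The fractions lie close together up to dome, and ENSDART00000093623 stands at 9.27% (nuclear) and 3.66% (cytosolic) at shield.

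Whether the members differed between the fractions over all 5 stages was tested with edgeR's quasi-likelihood test, with stage as a block, on all 9568 transcripts. The log2 difference of nuclear over cytosolic lay between 1.39 (SE 0.67) for ENSDART00000093596 and 1.83 (SE 0.46) for ENSDART00000093623. None of the 6 members passed an adjusted p of 0.05, and of all transcripts 0 (0%) were called higher. The edgeR adjusted p was 0.825 for each of the 6. An unadjusted p under 0.05 was found for 2 of 6 members, ENSDART00000093623 (0.00693) and ENSDART00000093625 (0.0363), against 4.4% of tested transcripts with one in the nuclear direction. This count depended on the setting. It was 6 of 6 with library totals (unadjusted p from 0.00412 to 0.0498, against 4.69% of tested transcripts), without the stage block (against 3.17%) and without the shield stage (against 3.61%). It was 5 of 6 without dome, where 292 of 8917 tested transcripts had such a p in either direction. It was 1 of 6 without 64-cell, 256-cell or 1000-cell, where 561 of 9379, 406 of 9441 and 370 of 9427 had one. DESeq2's Wald test called 1 member, ENSDART00000093623 (adjusted p = 0.00531), against 0.93% of tested transcripts called higher. The fit takes stages as replicates, and the step between 1000-cell and dome in the values above counts as spread in it.

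The next comparison asks how the members changed in each fraction over the period in which the embryo's own genome becomes active. In the nuclear fraction the summed block held 1.30% and 0.701% of the counts at the late stages, against 3.77% ± 0.559 at the early stages (SD, n = 3 stages). Both late libraries lay below all 3 early ones for 6 of 6 members, as they did for 21.7% of tested transcripts. The log2 difference of late over early was -2.28 (SE 0.49) for ENSDART00000093596, -2.35 (SE 0.60) for ENSDART00000093611 and -2.17 (SE 0.47) for ENSDART00000093622. For ENSDART00000093618 it was -1.997 (SE 0.57), for ENSDART00000093623 -1.75 (SE 0.59) and for ENSDART00000093625 -1.54 (SE 0.40).

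None of the 6 nuclear differences passed the threshold, with edgeR adjusted p from 0.0610 to 0.119, and 0.136% of tested transcripts were called lower. All 6 had an unadjusted p under 0.05 in that direction, from 0.00142 to 0.0168, as had 5.17% of tested transcripts. The members share libraries and follow each other closely, so they are not 6 independent observations. DESeq2 called all 6 lower, with adjusted p from 8.86e-05 to 0.0260, against 4.47% of tested transcripts. With the dome stage left out, edgeR called all 6 lower too (log2 difference from -3.16 to -1.74), against 27.2% of the 8917 transcripts then tested. In that fit the late group is shield alone, with 1 library per fraction, which is assumed to vary as the early libraries do. With the 1000-cell stage counted as late, the 6 log2 differences were smaller, from -1.39 to -0.93, and 0 of 6 members had an unadjusted p under 0.05 (0.0782 to 0.222), against 0.941% of tested transcripts.

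In the cytosolic fraction the late and early levels overlapped for 5 of 6 members. Of the 9568 tested transcripts, 1956 had both late cytosolic libraries below all 3 early ones and 2309 had both above. The rest did neither. The block held 1.34% and 0.569% of the counts at the late stages, against 0.711% ± 0.294 at the early stages (SD, n = 3 stages). ENSDART00000093625 was the exception, with both late libraries above all 3 early ones, as for 24.1% of tested transcripts. Its log2 difference of late over early was 0.90 (SE 0.38), with an edgeR adjusted p of 0.225 and an unadjusted p of 0.0420 (0.141 with library totals). The others lay between 0.26 (SE 0.55) for ENSDART00000093623 and 0.63 (SE 0.42) for ENSDART00000093622. None of the 6 passed in edgeR, where 0.157% of tested transcripts were called higher, and none in DESeq2, where 11.1% were. The unadjusted p was under 0.05 for 1 of 6 members, against 16.4% of tested transcripts in that direction.

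Whether the nuclear/cytosolic ratio itself differed between late and early stages was tested through the interaction of fraction and period, with stage blocked. The log2 difference of the ratio, late over early, was -2.91 (SE 0.35) for ENSDART00000093611, -2.91 (SE 0.41) for ENSDART00000093622 and -2.88 (SE 0.49) for ENSDART00000093596. It was -2.76 (SE 0.44) for ENSDART00000093618, -2.49 (SE 0.41) for ENSDART00000093625 and -1.87 (SE 0.52) for ENSDART00000093623. All 6 ratios were lower late at an unadjusted p under 0.05 (0.000336 to 0.0150), as were 3.3% of tested transcripts. None passed after adjustment over all transcripts (edgeR adjusted p from 0.439 to 0.698), and 0 transcripts (0%) were called lower. DESeq2 called 5 of 6 members lower, all but ENSDART00000093623 (adjusted p = 0.0618), against 0.899% of tested transcripts.

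**Figure D5:**
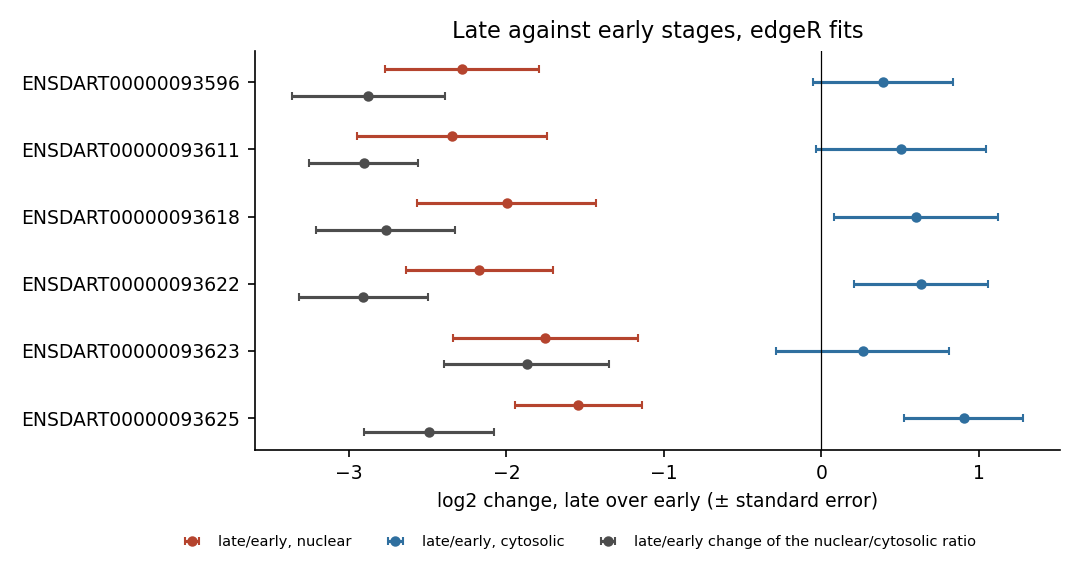
Log2 difference between late and early stages (x axis, ± standard error) for each of the 6 transcripts in the nuclear fraction, in the cytosolic fraction and for the nuclear/cytosolic ratio, from edgeR fits over all 10 libraries. The nuclear differences lie at -2.35 to -1.54, the cytosolic ones at 0.26 to 0.90 and those of the ratio at -2.91 to -1.87, none past the adjusted threshold.

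Step by step, the summed block differed most between neighbouring stages from 1000-cell to dome in the nuclear fraction. There it was lower at dome, with a log2 difference of -1.45, and all 6 members were 2-fold or more lower, from -1.82 for ENSDART00000093596 to -1.09 for ENSDART00000093623. Of tested transcripts 10.3% were as much lower at that step, and the median of all tested transcripts was 0.11. In the cytosolic fraction the block was higher by 0.43 at dome, and no member was past 2-fold in either direction. Of the 9568 tested transcripts, 1957 were 2-fold or more higher at that cytosolic step and 1089 lower, so most were not past 2-fold either. The block's 2 earlier cytosolic steps were 0.62 and 0.61, again with no member past 2-fold. Of tested transcripts, 1052 were 2-fold or more higher and 1044 lower at the first of these steps. At the second, 1122 were higher and 1052 lower.

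From dome to shield the block was lower at shield in both fractions, with log2 differences of -0.84 (nuclear) and -0.71 (cytosolic). In the nuclear fraction 3 of 6 members were 2-fold or more lower at shield, and in the cytosolic fraction 3 of 6 as well, against 32.5% of tested transcripts in each fraction. With library totals the block's difference was -0.89 (nuclear) and -1.24 (cytosolic). The members past 2-fold were then 4 of 6 in each fraction. The share of tested transcripts was counted with TMM scaling only, so these 4 have no share beside them. ENSDART00000093623 had the largest cytosolic difference of the 6, -1.62 (-2.15 with library totals), which was larger than its nuclear difference from 1000-cell to dome. Its nuclear difference from dome to shield was -0.70. ENSDART00000093625 had the smallest nuclear difference, -0.47.

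The likeness of the members was described by Pearson correlations of log2 CPM over the 10 libraries. Between the members, r lay between 0.908 and 0.993 over the 15 pairs, with a median of 0.952. The lowest r of a member with the summed block, which the members themselves make up, was 0.954. Among the 5060 other transcripts whose mean was 100 counts or more, the median r with the summed block was 0.10. Of these, 6 had r of 0.9 or more, and 3 reached that of the lowest member. The 2 most alike were ENSDART00000118969 (r = 0.977, mean 305.5 counts) and ENSDART00000118299 (r = 0.976, mean 100.7 counts), which lie outside the ID range. The log2 nuclear/cytosolic ratio of ENSDART00000118969 was 3.00, 2.53, 1.43, 0.00 and -0.42 in order of stage, and that of ENSDART00000118299 was 2.80, 3.02, 1.72, 0.10 and 0.31. These correlations share the libraries, their scaling and the step between early and late stages, and the transcripts were picked for the highest r.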

How the data were processed

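Stranded total RNA libraries were made after ribosomal RNA removal, per the labels' protocols. The authors deposited whole-number counts per Ensembl transcript ID. Trimmomatic 0.27, STAR 2.6.0a, StringTie and the genome build Zv9 are named in the submitters' processing notes. How reads shared by overlapping transcripts were divided, and the use of strand in counting, are not given in the sources used here. This matters because neighbouring mitochondrial genes can overlap. Columns were matched to libraries by stage and fraction, with 0 left unmatched.

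The 9568 transcripts that reached 10 counts in 2 or more libraries were tested with edgeR 4.0.16 in R 4.3.3, by glmQLFit and glmQLFTest with TMM scaling and Benjamini-Hochberg adjustment over all of them, at a threshold of 0.05. Standard errors are the log2 difference over the square root of F. Late against early used 1 fit with 4 means, which takes both libraries of a stage as independent. Ratios by stage used log2 CPM with a prior count of 2. Alternatives included DESeq2 1.42.0, other scalings and leaving out each stage. Python 3.11.15, NumPy 2.4.6, SciPy 1.17.1 and pandas 2.3.3 were used. All members were named, and the 2 most alike transcripts by the highest correlation. The members and lists were chosen with earlier results of these data known. Lists of nuclear genes for mitochondrial proteins were not analysed here, since 0 IDs had names. With stage blocked, p-values rest on the spread of the nuclear/cytosolic difference between stages. For late against early they rest on the spread between libraries of a fraction within a period. No stage was replicated, so they do not measure the spread within a stage.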

Additional observations from a re-analysis of the deposited data

How the results depend on the processing

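In edgeR, 0 of 6 members passed in each of the 4 comparisons, and this count was the same under the other scalings, without the filter on low counts, without the stage block or with 1 fraction alone, and with the 1000-cell stage counted as late, wherever these were run. DESeq2 called 1 member higher for nuclear against cytosolic, against 0.93% of tested transcripts. It called 6 lower for the nuclear difference between late and early stages (against 4.47%) and 5 lower for the change of the ratio (against 0.899%). A count of 0 cannot show a smaller difference. In the nuclear libraries, counting the 1000-cell stage as late brought the late over early log2 difference of ENSDART00000093596 to -1.08. The main grouping gave -2.28. The difference of ENSDART00000093618 was then -0.93. With each early stage left out in turn, 0 members passed for that nuclear difference. Of all tested transcripts, 0 of 9379 passed without 64-cell, 2 of 9441 without 256-cell and 0 of 9427 without 1000-cell. With nuclear libraries alone 0 of 8719 passed, and with the 1000-cell stage counted as late 0 of 9568. Since hardly any transcript passed in these fits, their counts of 0 members do not set the members apart from other transcripts. Without dome, where the late group is shield alone, the members' log2 differences ran from -3.16 to -1.74. Without shield, where it is dome alone, they ran from -1.79 to -1.30. The cause of these differences was not tested. For late against early in the cytosolic fraction, the log2 difference of ENSDART00000093611 was -0.21 without dome, and that of ENSDART00000093623 was -0.75 without dome and -0.01 without the 64-cell stage. All stages together gave 0.51 and 0.26, and without shield the values were highest, at 1.01 and 0.88. The nuclear minus cytosolic difference in the share of ENSDART00000093623 within the block, averaged over 5 stages, was 1.57 percentage points (SD 2.35). It was 2.82 when ENSDART00000093625 was left out of the block. Leaving out a member raises every remaining share, so these values are not on the same scale. The difference was 5.60 points at shield, and between -0.28 and 1.51 at the other stages. The block ratio averaged over the 5 stages kept its sign under each alternative, but at shield alone the sign changed with library totals. The mean difference of block share, nuclear minus cytosolic, was 1.86 percentage points, and 1.28 without ENSDART00000093625. A minimum mean of 1000 counts, or none, chose the same 6 members, so these alternatives could not change it.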
